A study of Homo sapiens with 10 samples.

Results

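The nuclear genes for subunits of the mitochondrial respiratory chain and ATP synthase were followed in newly made and in total RNA of 22RV1 cells. Members were chosen by symbol: protein-coding nuclear genes whose names begin NDUFA, NDUFB, NDUFC, NDUFS or NDUFV and a number (complex I), SDHA to SDHD (complex II), UQCR (complex III), COX4 to COX8 (complex IV) or ATP5 (complex V). The rule found 89 of 31015 genes with a usable interval in the deposited tables, and 78 of the 89 had enough labelled reads to be tested. The names are those of the rule, not of the proteins' place: NDUFA4 is now known as a complex IV subunit, COX7A2L is a factor that joins complexes III and IV, and ATP5IF1 is an inhibitor of ATP synthase, not a subunit.

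Complexes I and II pass electrons from NADH and succinate to ubiquinone, complex III passes them on to cytochrome c and complex IV to oxygen, and complexes I, III and IV pump protons. Complex V uses the proton gradient to make ATP. Most subunits are encoded in the nucleus and must be made in step with the few encoded in mitochondrial DNA, and the nuclear genes are known targets of the transcription factors NRF1 and GABP and of their coactivator PGC-1alpha.

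22RV1 is an established human prostate cancer line that grows without androgen. The study asked how the splicing kinase SRPK1 and the transcription kinase CDK12 act on transcription in such cells. Cells were left untreated (control) or received for 4 h SRPIN340 at 20 µM (an SRPK1 inhibitor), Endovion at 50 µM (SCO-101, used here as a further SRPK1 inhibitor), THZ531 (a CDK12 and CDK13 inhibitor), or THZ531 together with Endovion, and all were given 4-thiouridine (4sU) for the last 10 min. The THZ531 dose stands as 150 nM in the series text and as 100 nM in the study's methods.

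Each of the 5 groups held 2 libraries, 10 in all, and nothing states that the 2 came from separate cultures, so the p-values measure the spread between these libraries only. In SLAM-seq, bases with 4sU come out of the sequencer as C where the gene has T, and a read with such a change (a T>C read) counts as nascent RNA. Each library held 19315398 to 30047663 reads on genes, of which 5.04% to 5.70% were T>C reads. The members took 2.52% to 3.06% of all reads and 2.44% to 3.01% of T>C reads, with the lowest and the highest share of all reads both in Endovion libraries. Of 10 luminal prostate markers 8 had at least 50 reads in every library (summed level 1421 to 2013 CPM), while none of the 3 basal, 3 fibroblast, 3 endothelial and 3 immune markers did (summed levels at most 0.25, 3.47, 0.0333 and 0.898), with KRT5, COL1A2, CDH5, VWF and CD3E at 0 everywhere. In such bulk samples fewer cells and less RNA per cell cannot be told apart. All 4 comparisons of a treatment with control share the same 2 control libraries. Levels are given as CPM, the reads of a gene scaled to its library's total after edgeR's TMM correction for library composition, either of T>C reads (T>C CPM) or of all reads (CPM). A gene is called at an adjusted p under 0.05 in edgeR's quasi-likelihood test over all genes.

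Few members were called in nascent RNA, and few of all genes were. With 2 libraries per group, a gene that was not called may still have changed. With SRPIN340, 1 of 78 members was called and it rose, against 1.04% of all 9946 genes tested. With Endovion 2 rose and 2 fell, against 2.66% of all genes, with THZ531 3 rose and 3 fell, against 7.46%, and with THZ531 + Endovion 3 rose and 3 fell, against 8.1%. The members' own shares called were 1.28%, 5.13%, 7.69% and 7.69%. The median change of the members on the log2 scale was -0.17 (SRPIN340) and -0.18 (Endovion), where the median of all genes was -0.01 in both, and it was -0.05 with THZ531 and -0.05 with THZ531 + Endovion, where all genes stood at -0.02 and -0.01. The members stood above 0 in 27, 27, 32 and 33 of 78 cases. In all reads the members' medians were -0.16 with SRPIN340 and -0.14 with Endovion, where all genes stood at 0.03 and 0.02. For the share of T>C reads among a gene's reads the medians were 0.03 and -0.02, where all genes stood at -0.02 in both.

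**Figure D1:**
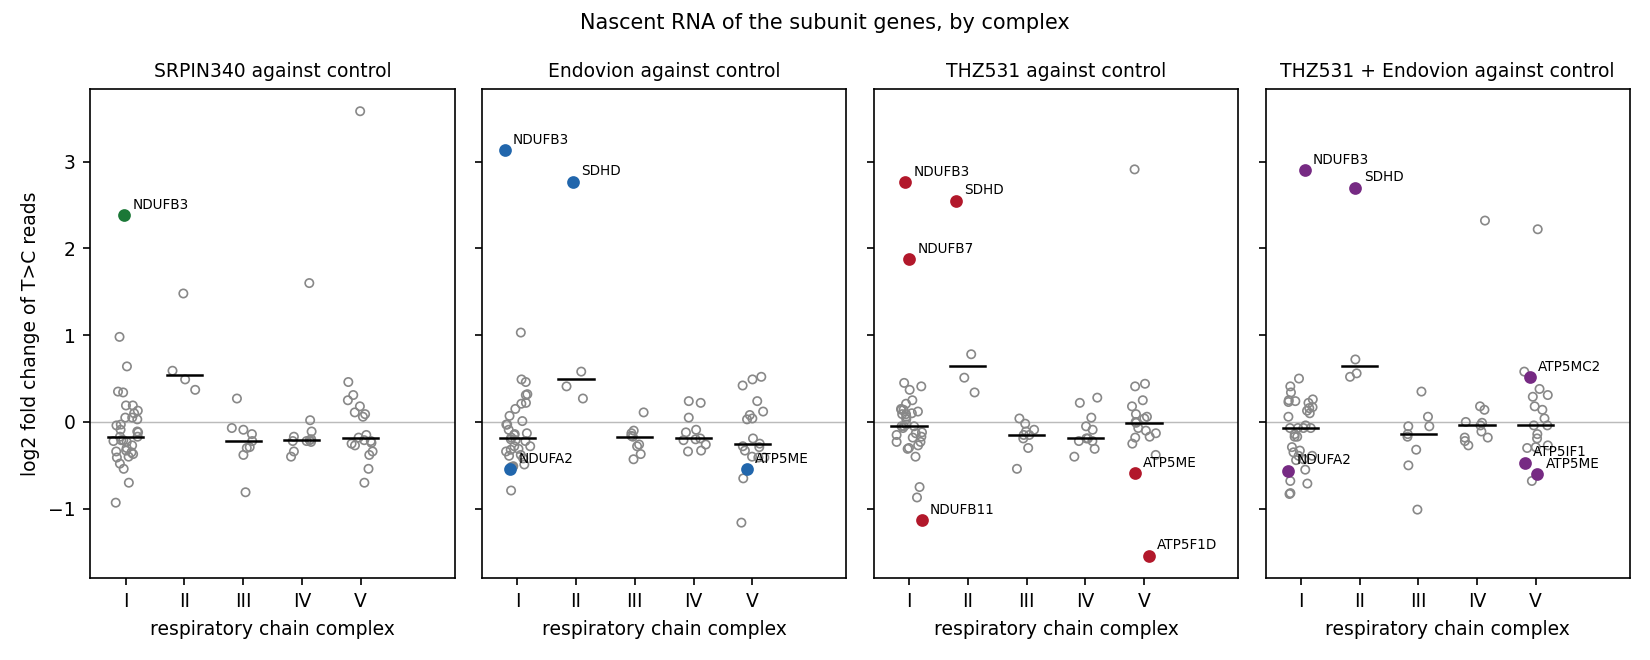
Each circle is a member, with the log2 fold change of its T>C reads against control on the vertical axis and its complex on the horizontal axis, in 1 panel per treatment. Filled and named circles are called, bars are medians of a complex, and positions across a column are random. All 4 complex II genes stand above 0 in every panel, while the medians of the other complexes lie between -0.25 and -0.01.

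Complex II was the only complex whose genes all lay above 0 in nascent RNA. Its 4 genes did so with each treatment, with medians of 0.54, 0.50, 0.65 and 0.64 for SRPIN340, Endovion, THZ531 and THZ531 + Endovion. Of the 35 complex I genes tested, 12, 11, 16 and 14 lay above 0. Of the 9 complex III genes 1, 1, 1 and 2 did, of the 11 complex IV genes 2, 3, 3 and 4, and of the 19 complex V genes 8, 8, 8 and 9. Complex II is the only one with no part encoded in mitochondrial DNA, and its genes also serve the citric acid cycle as succinate dehydrogenase. The share of T>C reads among all reads of a gene did not rise alike. With each treatment its log2 change lay above 0 for 2 of the 4 genes and below 0 for 2. The medians were -0.02, -0.17, 0.13 and -0.04. No test of complex II against the other complexes was made.

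The complex II gene called in nascent RNA was SDHD. SDHD (chromosome 11, 112086824 to 112120016, plus strand, GRCh38), which with SDHC anchors the enzyme in the membrane, had 6.44 and 1.60 T>C CPM in control, 6.09 and 17.5 with SRPIN340, 26.9 and 31.7 with Endovion, 15.0 and 36.6 with THZ531, and 18.6 and 37.4 with THZ531 + Endovion. All treated libraries but SRPIN340 replicate 1 lay above both controls. The log2 fold change was 2.77 ± 0.62 (SE, adjusted p = 0.0036, edgeR) with Endovion, 2.55 ± 0.63 (adjusted p = 0.00531) with THZ531 and 2.70 ± 0.63 (adjusted p = 0.0028) with the combination. With SRPIN340 it was 1.48 ± 0.65 (adjusted p = 0.382). These rest on 10 and 2 T>C reads in the controls and 22 to 38 in the Endovion, THZ531 and combination libraries. The 3 calls were lost in edgeR without control replicate 2, at adjusted p = 0.14, 0.109 and 0.0756 and log2 fold changes of 2.17, 1.94 and 2.09. Without THZ531 replicate 2 (adjusted p = 0.222) or THZ531 + Endovion replicate 2 (adjusted p = 0.0924) the calls in those comparisons were lost too.

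SDHB (chromosome 1, 17018664 to 17054032, minus strand), the iron-sulfur subunit that hands electrons on, had 151 and 160 T>C CPM in control and 195 to 261 in the 8 treated libraries, all above both controls. None of its 4 nascent tests passed: log2 fold changes ran from 0.51 with THZ531 to 0.59 with SRPIN340, each with an SE of 0.19, at adjusted p of 0.0793 to 0.125 in edgeR. In all reads it stood at 76.0 and 32.8 CPM in control, 112 and 176 with SRPIN340, 158 and 184 with Endovion, 133 and 208 with THZ531, and 169 and 193 with the combination. The control libraries thus differed from each other by 2.32-fold, and every treated library was above both. SDHB was called for all reads with THZ531 (1.64 ± 0.47, adjusted p = 0.0481, edgeR) and with the combination (1.73 ± 0.47, adjusted p = 0.043). Both calls were lost without control replicate 2 (adjusted p = 0.111 and 0.102), without replicate 1 of the treated group (adjusted p = 0.0633 and 0.131) or its replicate 2 (adjusted p = 0.232 and 0.152), and with the replicate number as a block (adjusted p = 0.0825 and 0.0726).

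SDHC, the other anchor, had 148 and 89.2 CPM in control and 184 to 243 in treated libraries. Its counted interval (chromosome 1, 161362434 to 161375340) runs past the gene's annotated end at 161363206, so reads from beyond the gene may be included. SDHC was tested as follows. It rose in all reads with Endovion by 0.80 ± 0.20 on the log2 scale (adjusted p = 0.0281, edgeR), with THZ531 by 0.78 ± 0.20 (adjusted p = 0.0133) and with the combination by 0.95 ± 0.20 (adjusted p = 0.00578). These became 0.43 (adjusted p = 0.149), 0.42 (adjusted p = 0.052) and 0.58 (adjusted p = 0.0134) without control replicate 2. The Endovion call was also lost without Endovion replicate 1 (adjusted p = 0.17) or 2 (adjusted p = 0.122), that with THZ531 without THZ531 replicate 2 (adjusted p = 0.12), and that with the combination without its replicate 1 (adjusted p = 0.0601). SDHA, the flavoprotein that holds the active site, had 86.6 and 76.9 CPM in control and 94.6 to 125 after treatment, and was called in the combination (0.53 ± 0.11, adjusted p = 0.00297, edgeR), a call lost without THZ531 + Endovion replicate 1 (adjusted p = 0.0688). In all reads, too, the 4 genes lay above 0 with every treatment, with medians of 0.86, 1.22, 1.21 and 1.34, where the median of all members was -0.16, -0.14, -0.03 and -0.02.

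**Figure D2:**
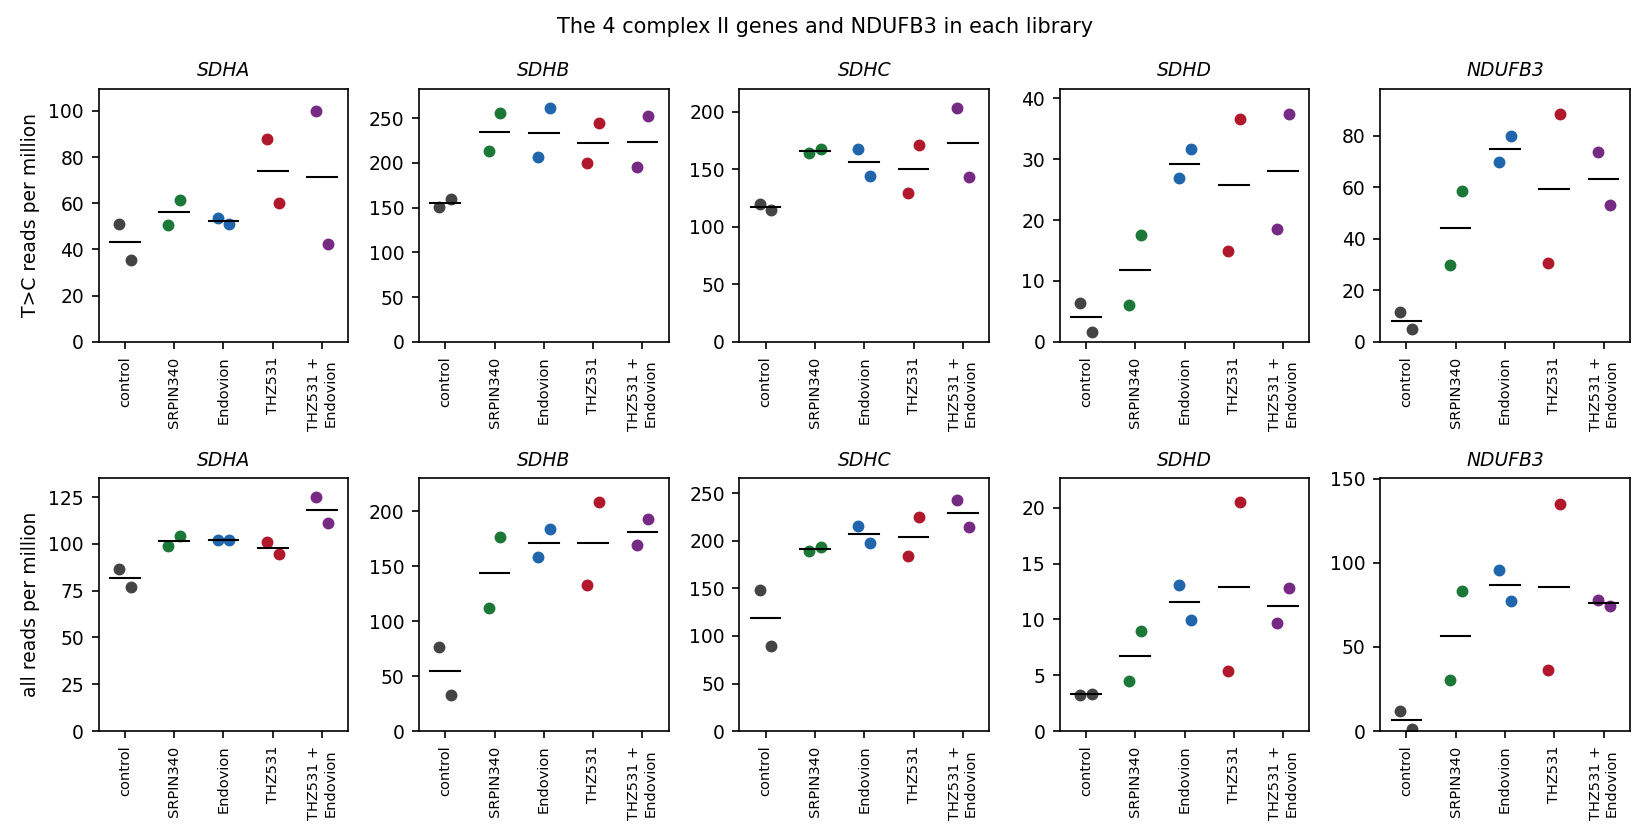
Points are single libraries, 2 per group, and bars their mean. The upper row gives T>C CPM and the lower row CPM of all reads of the 4 complex II genes and NDUFB3, on axes from 0. For all reads every treated library lies above both controls in each of the 5 genes, and control replicate 2 is the lowest library for 4 of them; for SDHD the controls stand at 3.24 and 3.32.

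NDUFB3 (chromosome 2, 201071433 to 201085750, plus strand), a small accessory subunit of the membrane arm of complex I, was the member called in nascent RNA with all 4 treatments. It had 11.6 and 4.81 T>C CPM in control, 29.8 and 58.8 with SRPIN340, 69.8 and 79.8 with Endovion, 30.6 and 88.5 with THZ531, and 73.7 and 53.1 with THZ531 + Endovion. Every treated library was above both controls. The log2 fold changes were 2.38, 3.13, 2.76 and 2.90, each ± 0.47 (SE), at adjusted p of 0.00413, 3.57e-05, 0.000169 and 6.08e-05 in edgeR. Without control replicate 2 the SRPIN340 call was lost (1.93, adjusted p = 0.157), and without SRPIN340 replicate 2 as well (1.80, adjusted p = 0.145), while the other 3 comparisons were called under each of the 11 alternatives run. In all reads the same gene stood at 11.9 and 1.05 CPM in control, 11.4-fold apart, and at 30.2 to 135 in treated libraries. Its log2 fold changes for all reads of 3.10 to 3.70 were not called in edgeR (adjusted p from 0.0724 to 0.244). The share of T>C reads among its reads did not rise. It was 6.67% over both controls and 3.44% to 5.45% in treated libraries. Of these 8 libraries, 0 lay above both controls and 7 below both, and no change of the share was called. The controls were unlike: replicate 2, at 1.05 CPM of all reads, stood at 24%, 4.47-fold the other. Its share thus rests on few reads.

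In all reads the 2 control libraries differed from each other in NDUFB3, SDHB and SDHC more than in most members. In T>C reads they differed most in SDHD (4.01-fold), NDUFB7 (3.21-fold) and NDUFA8 (2.94-fold). For all reads 10 of 80 members differed over 1.5-fold between the controls, 12.5%, as did 21.4% of all genes tested. For T>C reads 10 of 78 did, 12.8%, as did 37.2% of all genes. Without control replicate 2, 0, 1, 1 and 1 members were called in nascent RNA with SRPIN340, Endovion, THZ531 and the combination, and 12, 89, 389 and 344 genes in all. Without control replicate 1 the members called were 3, 7, 6 and 8, where 2.02%, 3.78%, 6.41% and 7.75% of all genes were.

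NDUFB7, another accessory subunit of the membrane arm, had 10.3 and 3.21 T>C CPM in control and 25.4 and 26.4 with THZ531, a rise of 1.88 ± 0.62 (adjusted p = 0.0476, edgeR). With THZ531 + Endovion it had 8.47 and 4.92, a log2 fold change of -0.04 ± 0.70 (adjusted p = 0.983). Its level in all reads was 90.5 to 113 CPM over the 10 libraries. Its THZ531 call was lost with DESeq2 (adjusted p = 0.0756) and without control replicate 2 (adjusted p = 0.331), THZ531 replicate 1 (adjusted p = 0.136) or THZ531 replicate 2 (adjusted p = 0.191).

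The members that fell came from complexes I and V. ATP5ME (chromosome 4, 672436 to 674330, minus strand), subunit e at the interface of ATP synthase dimers, had 772 and 901 T>C CPM in control, 595 and 552 with SRPIN340, 483 and 671 with Endovion, 573 and 538 with THZ531, and 507 and 595 with the combination. All 8 treated libraries lay below both controls. It fell by 0.54 ± 0.16 (adjusted p = 0.0415, edgeR) on the log2 scale with Endovion, by 0.59 ± 0.16 (adjusted p = 0.00975) with THZ531 and by 0.60 ± 0.16 (adjusted p = 0.0077) with the combination. Leaving out control replicate 2 gave -0.42, -0.47 and -0.49 (adjusted p = 0.376, 0.131 and 0.117), and 1 treated library decided each call as well: Endovion replicate 1 (adjusted p = 0.598 without it), THZ531 replicate 2 (adjusted p = 0.15) and THZ531 + Endovion replicate 1 (adjusted p = 0.181).

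NDUFA2 (chromosome 5, 140638740 to 140647771, minus strand), an accessory subunit of the complex I arm that takes up NADH, had 1132 and 1280 T>C CPM in control, 727 and 934 with Endovion, and 806 and 825 with the combination. It fell by 0.54 ± 0.15 (adjusted p = 0.0285, edgeR) and 0.56 ± 0.15 (adjusted p = 0.00904) in these groups. With THZ531 alone it had 987 and 1154, of which the second lies between the controls. ATP5IF1, which blocks ATP synthase from running backwards, had 935 and 1044 T>C CPM in control and 733 and 694 with the combination, a fall by 0.47 ± 0.15 (adjusted p = 0.0301), and its reads in all RNA fell by 0.37 ± 0.11 (adjusted p = 0.017). Without control replicate 2 the nascent calls of NDUFA2 and ATP5IF1 were lost in edgeR (adjusted p from 0.111 to 0.276). Those of NDUFA2 were lost too without Endovion replicate 1 (adjusted p = 0.466) and without THZ531 + Endovion replicate 1 or 2 (adjusted p = 0.101 and 0.0572), and that of ATP5IF1 without either replicate of the combination (adjusted p = 0.122 and 0.176). The fall of ATP5IF1 in all reads was lost without THZ531 + Endovion replicate 2 (adjusted p = 0.135).

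Of the less read genes, NDUFB11, an accessory subunit of the membrane arm, stood at 56.6 and 57.0 T>C CPM in control and at 28.0 and 23.4 with THZ531, a fall by 1.13 ± 0.35 (adjusted p = 0.0329, edgeR). ATP5F1D, the delta subunit at the foot of the central stalk, stood at 25.7 and 49.7 in control and at 11.7 and 14.2 with THZ531, a fall by 1.54 ± 0.47 (adjusted p = 0.0302). Their reads in all RNA lay between 71.4 and 83.5 CPM for NDUFB11 and between 68.5 and 83 for ATP5F1D. For NDUFB11 all 8 treated libraries were below both controls there too, and for ATP5F1D 2 were below both and 1 above both. Both calls were lost without control replicate 2 (adjusted p = 0.116 and 0.383) and without THZ531 replicate 1 (adjusted p = 0.0945 and 0.187) or 2 (adjusted p = 0.232 and 0.133), and that of NDUFB11 also without control replicate 1 (adjusted p = 0.0914).

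**Figure D3:**
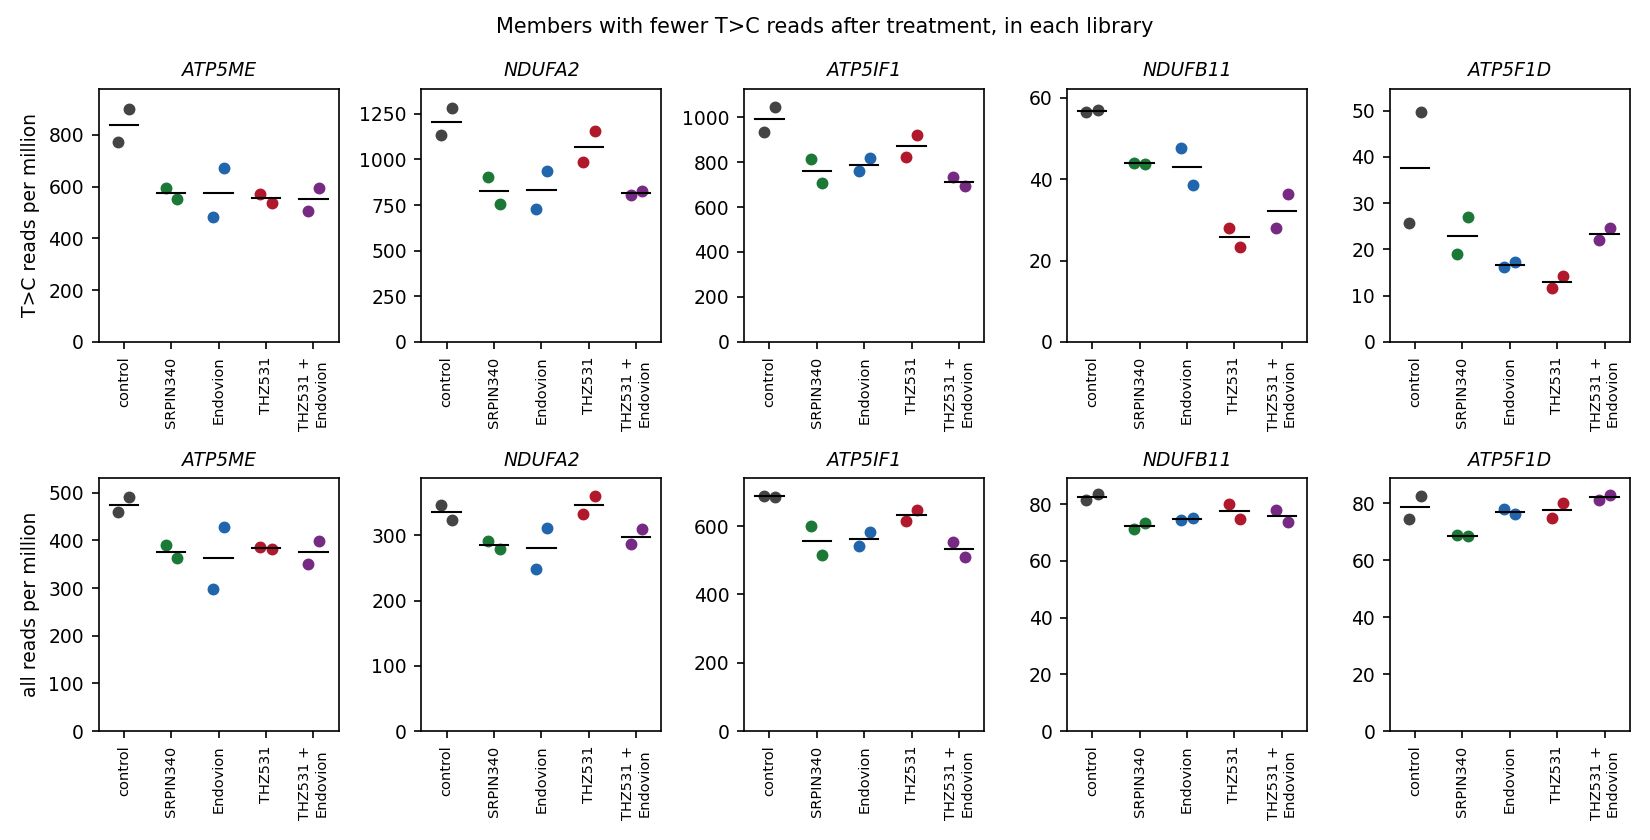
Points are single libraries, 2 per group, and bars their mean, on axes from 0. The upper row gives T>C CPM and the lower row CPM of all reads for the 5 members called lower in nascent RNA with any treatment. For ATP5ME, ATP5IF1 and NDUFB11 all 8 treated libraries lie below both controls in the upper row, and for NDUFA2 and ATP5F1D 7 of 8 do.

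The 3 genes for subunit c of the ATP synthase ring code for the same mature protein with different import signals, and 1 of them was called. ATP5MC2 (chromosome 12, 53632726 to 53677408) had 385 and 311 T>C CPM in control, 421 and 443 with SRPIN340, 530 and 445 with Endovion, 498 and 426 with THZ531, and 516 and 483 with the combination, all 8 above both controls. It rose in the combination (0.52 ± 0.16, adjusted p = 0.0291, edgeR), and its log2 fold changes in the other 3 comparisons were 0.31, 0.49 and 0.41 (adjusted p = 0.5, 0.0896 and 0.104). ATP5MC1 (chromosome 17, 48892765 to 48895871) had 817 and 989 in control and 663 to 817 after treatment, with log2 fold changes from -0.38 to -0.27 and none called. ATP5MC3 (chromosome 2, 175176258 to 175181710) had 1370 and 1383 in control and 1074 to 1506 after treatment, with log2 fold changes from -0.25 to 0.04 and none called. The ATP5MC2 value without control replicate 2 was 0.38 (adjusted p = 0.295, edgeR), and its call was also lost without THZ531 + Endovion replicate 1 (adjusted p = 0.212) or 2 (adjusted p = 0.0716).

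The ratio of ATP5MC2 to ATP5MC1 within a library does not depend on the scaling. In T>C reads it was 0.471 and 0.315 in control, 0.623 and 0.542 with SRPIN340, 0.734 and 0.585 with Endovion, 0.687 and 0.643 with THZ531, and 0.713 and 0.653 with the combination. In all reads it was 1.27 and 0.89 in control and 1.48 to 1.66 in the treated libraries. The 8 treated libraries were above both controls in either measure. With 2 libraries against 2, an exact permutation test cannot go below p = 0.333, so these ratios were not tested singly. In T>C reads the ratio of ATP5MC3 to ATP5MC1 overlapped, at 1.68 and 1.40 in control and 1.43 to 2.27 after treatment.

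**Figure D4:**
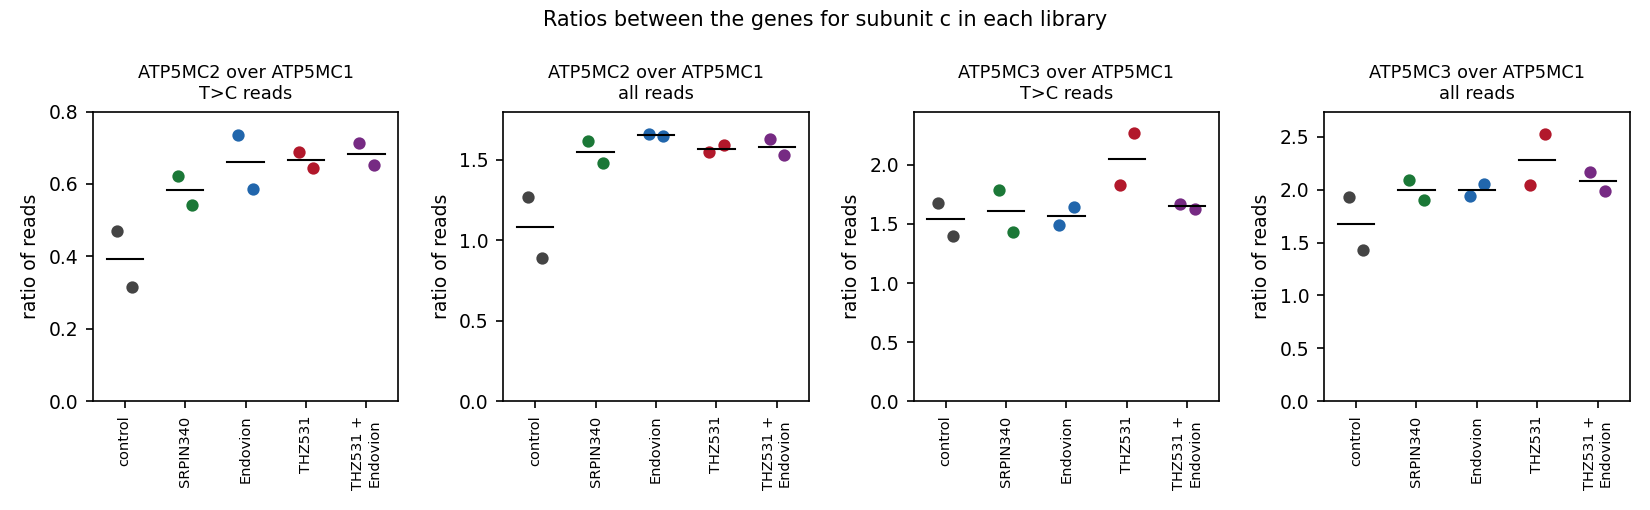
Points are single libraries, 2 per group, and bars their mean, on axes from 0. The panels give the ratio of reads of ATP5MC2 to ATP5MC1 and of ATP5MC3 to ATP5MC1, for T>C reads and for all reads. The ATP5MC2 ratio lies higher in all 8 treated libraries than in either control, at 0.542 to 0.734 against 0.471 and 0.315 for T>C reads.

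The tissue-restricted forms COX4I2, COX6A2, COX7A1, COX7B2 and COX8C, and the read-through genes ATP5MF-PTCD1 and NDUFC2-KCTD14, had 0 reads in all 10 libraries, 7 members in all; a count of 0 allows up to 3 reads. COX6B2 had at most 13 reads in a library, and NDUFA4L2 had 0.148 to 1.40 CPM. NDUFA3 had at most 4 reads in its intervals and NDUFA6 at most 14, so that these broadly used subunits could not be followed in T>C reads. The common forms were not called in nascent RNA with any treatment: COX4I1 stood at 285 to 416 T>C CPM, COX6B1 at 79.1 to 130, COX7A2 at 149 to 232, COX7B at 146 to 272, COX8A at 869 to 1076 and NDUFA4 at 273 to 435. UQCRH, the hinge subunit of complex III, stood at 415 to 526. UQCRHL, a near-identical copy of it, stood at 24.6 to 63.1, and reads of the pair may be split between them. The members with most T>C reads in the controls were SDHB in complex II, UQCRB in III, COX8A in IV and ATP5MG in V. UQCRB, a subunit next to the ubiquinone site of complex III, had 767 and 898 T>C CPM in control and 603 to 953 after treatment. ATP5MG, subunit g of the dimer interface, had 1810 and 1597 in control and 1336 to 1743 after treatment. Neither UQCRB nor ATP5MG was called in nascent RNA in edgeR.

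In all reads the members were called less than the share of all genes in every comparison, a difference that was not tested. With SRPIN340 0 of 80 were called in edgeR, against 1.96% of all 14689 genes, and 20 had an unadjusted p under 0.05. DESeq2 called 4, all higher, but it also called more of all genes than edgeR did. With Endovion 2 rose (2.5% of members) against 11.4% of all genes. With THZ531 6 rose and 2 fell (10%) against 30.7%, and with THZ531 + Endovion 7 rose and 2 fell (11.2%) against 29%. Beside complex II the risers were mostly in complexes IV and V. COX6A1, the form of subunit 6A made outside muscle, had 667 and 869 CPM in control and 954 to 1282 after treatment. It was called with Endovion (0.51 ± 0.14, adjusted p = 0.0338, edgeR), THZ531 (0.61 ± 0.14, adjusted p = 0.00573) and the combination (0.73 ± 0.14, adjusted p = 0.00197). Without Endovion replicate 2 or control replicate 1 the Endovion call was lost (adjusted p = 0.258 and 0.155), and without THZ531 replicate 2 that with THZ531 (adjusted p = 0.081). COX7A2L had 38.4 and 33.4 in control and 42.5 to 60.2 after treatment, and rose with THZ531 by 0.66 ± 0.14 (adjusted p = 0.00239). With the combination COX7A2L, ATP5MC2 and ATP5F1C (0.82) were called higher as well. The calls of COX7A2L and ATP5MC2 there were kept in 8 and 5 of 10 alternatives, with log2 fold changes of 0.34 to 0.62 and 0.17 to 0.52. ATP5F1C, the gamma subunit that turns inside the F1 head, had 74.4 and 42.8 in control and 84.3 to 115 after treatment, and NDUFC1, a membrane arm subunit, had 514 and 339 in control and 578 to 855. Both were called with THZ531 (0.76 ± 0.24 and 0.78 ± 0.21, adjusted p = 0.0379 and 0.0228, edgeR). These calls were lost without control replicate 2 (adjusted p = 0.132 and 0.0943), as they were without THZ531 replicate 2 (adjusted p = 0.229 and 0.144), and that of ATP5F1C also without THZ531 replicate 1 (adjusted p = 0.0638).

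Those that fell in all reads were NDUFV3, an accessory subunit by the NADH site, ATP5IF1 and UQCR11, the smallest complex III subunit. NDUFV3 had 67.7 and 73.4 CPM in control, 54.1 and 45.1 with THZ531 and 48.4 and 53.1 with the combination. It fell by 0.51 ± 0.13 (adjusted p = 0.00802, edgeR) and 0.48 ± 0.13 (adjusted p = 0.0119), and its 8 treated libraries were below both controls in T>C reads too. UQCR11 had 246 and 230 in control and 196 and 176 with THZ531, and fell by 0.36 ± 0.11 (adjusted p = 0.0209). Leaving out THZ531 replicate 2 lost both THZ531 calls (adjusted p = 0.0645 and 0.107), leaving out control replicate 1 that of UQCR11 (adjusted p = 0.0826), and leaving out THZ531 + Endovion replicate 1 the other NDUFV3 call (adjusted p = 0.0624).

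The share of a gene's reads that carry T>C reads out new RNA, but it also depends on how many T bases the interval holds and on any variants there, for which no correction was made, so that levels of the share do not rank genes by turnover. Over both controls the median share was 4.05% for members and 5.19% for all 9946 genes tested. It ranged from 0.38% to 23.9% among members, with 12 of 78 (15.4%) over 10%, as against 17.1% of all genes. NDUFC1 stood highest at 23.9%, followed by NDUFB4, an accessory membrane arm subunit, at 22.1% and NDUFA2 at 19.2%. The medians were 3.73% for complex I, 6.16% for II, 3.31% for III, 4.33% for IV and 4.03% for V. NDUFC1 was the member whose share was called most: it was 23.3% and 25.0% in control, 19.7% and 14.9% with SRPIN340, 15.4% and 17.3% with Endovion, 20.5% and 17.4% with THZ531, and 16.2% and 15.6% with the combination. The log2 change of the share, from a fit of T>C against unconverted reads in edgeR, was -0.53 ± 0.10 (adjusted p = 0.0116) with SRPIN340, -0.53 ± 0.10 (adjusted p = 0.00463) with Endovion and -0.61 ± 0.10 (adjusted p = 0.000864) with the combination. ATP5F1C fell from 12.6% and 15.7% to 7.04% and 7.66% in the combination (-0.89 ± 0.20, adjusted p = 0.0166). ATP5PF, coupling factor 6 of the peripheral stalk, rose from 2.97% and 2.20% to 4.03% and 3.47% with Endovion (0.73 ± 0.17, adjusted p = 0.0412), and NDUFB7 from 0.552% and 0.169% to 1.30% and 1.5% with THZ531 (1.98 ± 0.43, adjusted p = 0.0266). Members called were thus 1, 2, 1 and 2 of 78, against 0.181%, 0.442%, 0.342% and 1.02% of all genes. Leaving out control replicate 2 left 0, 0, 0 and 1. The call that stayed was NDUFC1 in the combination, which was lost without THZ531 + Endovion replicate 2 (adjusted p = 0.065, edgeR). NDUFC1 also lost its calls without SRPIN340 replicate 2 (adjusted p = 0.499) and Endovion replicate 1 (adjusted p = 0.359). ATP5F1C, ATP5PF and NDUFB7 lost theirs without either replicate of the treated group (adjusted p from 0.0979 to 0.553).

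The share of 6 of 78 members differed over 4-fold between the lowest and the highest library, namely ATP5MGL (31.7-fold), NDUFB7 (8.86-fold), NDUFB3 (6.97-fold), SDHD (6.49-fold), SDHB (4.29-fold) and COX6A1 (4.01-fold). Between the 2 replicates of 1 group the share of NDUFB3 differed up to 4.47-fold, that of SDHD up to 4.34-fold and that of NDUFB7 up to 3.26-fold. No cause of this was tested. COX6A1 had 5.93% and 5.31% in control, 4.71% and 16% with SRPIN340, 4.61% and 4.14% with Endovion, 4.47% and 4.23% with THZ531, and 16.6% and 16% with the combination. Its T>C reads were 962 to 1361 in 7 libraries and 3918 to 6274 in the other 3, while its reads in all RNA ran only from 18706 to 39104. ATP5MGL, a copy of ATP5MG with which it shares near-identical sequence, had 3.94% and 7.56% in control, 73.5% and 72.3% with SRPIN340, 4.69% and 2.72% with Endovion, 73.0% and 2.32% with THZ531, and 3.07% and 64.4% with the combination. High and low values fell within 1 group for COX6A1 with SRPIN340 and for ATP5MGL with THZ531 and the combination, and neither gene was called in nascent RNA in edgeR. COX6A1 stood at 2.32 ± 0.67 with the combination (adjusted p = 0.118, edgeR), and DESeq2 called it there (2.31, adjusted p = 0.00817). ATP5MGL had its lowest adjusted p with THZ531 (2.91 ± 1.71, adjusted p = 0.421, edgeR) and was not called by DESeq2. SRPIN340 replicate 2 and THZ531 + Endovion replicate 2 were high in both genes, SRPIN340 replicate 1 and THZ531 replicate 1 in ATP5MGL only, and THZ531 + Endovion replicate 1 in COX6A1 only.

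**Figure D5:**
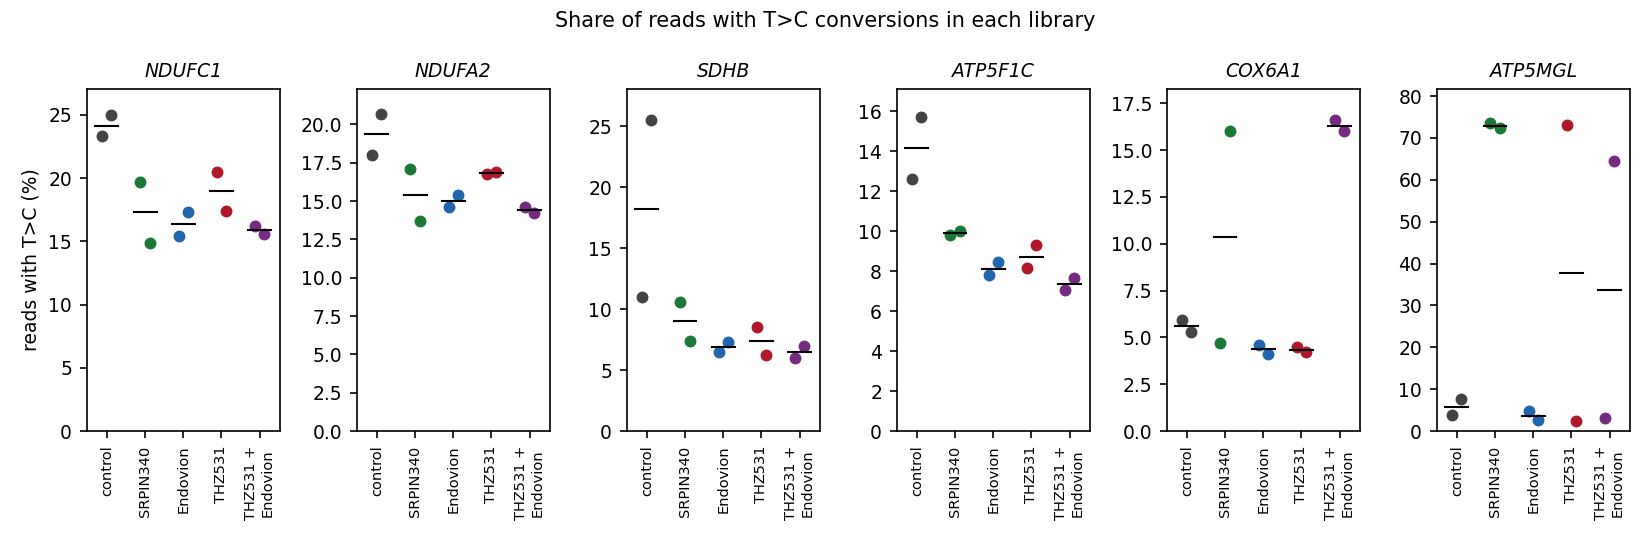
Points are single libraries, 2 per group, and bars their mean, with the percentage of a gene's reads that carry T>C on axes from 0, for 6 members. NDUFC1, NDUFA2, SDHB and ATP5F1C lie lower in all 8 treated libraries than in either control, while COX6A1 and ATP5MGL stand at 16% or more in 3 libraries and at 64.4% or more in 4. Other members not drawn, such as COX8A and NDUFB4, also lie lower in all 8. Over all genes the percentage was 5.695% and 5.634% in control and 5.045% to 5.632% in treated libraries, and the values drawn are not corrected for this.

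Between treatments no member was called. Endovion against SRPIN340 gave 0 of 78 members called in nascent RNA, where 0.0603% of all genes were. In edgeR 1 member, SDHD (1.29 ± 0.54, adjusted p = 1), had an unadjusted p under 0.05, and DESeq2 called 0. For 65 of 78 members the 95% interval of the difference lay within 2-fold either way. THZ531 + Endovion against THZ531 gave 0 called, against 0.322% of all genes, with 6 members at an unadjusted p under 0.05 in edgeR and 0 called by DESeq2. Against Endovion it gave 0 called, against 1.31%, with 3 such members in edgeR and 0 called by DESeq2. The intervals lay within 2-fold for 62 and 63 members. NDUFB7 had the smallest p between the combination and THZ531, at -1.92 ± 0.64 (95% interval -3.20 to -0.64, adjusted p = 0.281, edgeR).

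The study asked whether gene length matters to these treatments. It took lengths from a published list, which may not be genomic span, and only its limit of 15 kb was used here. By genomic span the members tend to be shorter than other genes. The median was 12.6 kb over the 78 tested and 35.1 kb over the 9511 protein-coding genes tested, and 60.3% against 26% spanned at most 15 kb. With SRPIN340 the median change in nascent RNA, on the log2 scale, was -0.21 for the 47 members up to 15 kb and 0.02 for the 31 longer ones, and with Endovion -0.25 and -0.09. With THZ531 it was -0.11 and 0.06, and with the combination -0.14 and 0.06. Over all protein-coding genes the same split gave -0.09 and 0.02, -0.10 and 0.03, -0.07 and 0.01, and -0.14 and 0.05. Of the complex II genes, all 4 span over 15 kb (SDHD 33193 bp, SDHB 35369 bp, SDHA 38780 bp and SDHC 48826 bp), as does ATP5MC2 at 44683 bp, where ATP5MC1 spans 3107 bp, ATP5MC3 5453 bp and ATP5ME 1895 bp. Of other members called higher in nascent or total RNA, NDUFB3 spans 14318 bp, NDUFB7 5989 bp and COX6A1 2648 bp. ATP5F1C (19669 bp), NDUFC1 (35672 bp) and COX7A2L (91543 bp) were also called higher. Of other members called lower, NDUFA2 spans 9032 bp, ATP5IF1 10798 bp, NDUFB11 3396 bp, ATP5F1D 3080 bp, UQCR11 8305 bp and NDUFV3 33661 bp. Whether span goes with direction was not tested.

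The upstream sequences of 4 called members are shown because they share a motif although 3 of the genes rose and 1 fell. They are the 250 bases before the start of transcription from RefSeq (GRCh38.p14), 5′ to 3′ on the gene's strand. Capitals mark the NRF1 core GCATGCGC or its reverse complement GCGCATGC, which overlap in SDHD. The regions are chr1:17054033-17054282 (minus strand) for SDHB, chr11:112086623-112086872 (plus strand) for SDHD, chr12:53676084-53676333 (minus strand, the first of 3 starts listed) for ATP5MC2 and chr4:674277-674526 (minus strand) for ATP5ME.
SDHB: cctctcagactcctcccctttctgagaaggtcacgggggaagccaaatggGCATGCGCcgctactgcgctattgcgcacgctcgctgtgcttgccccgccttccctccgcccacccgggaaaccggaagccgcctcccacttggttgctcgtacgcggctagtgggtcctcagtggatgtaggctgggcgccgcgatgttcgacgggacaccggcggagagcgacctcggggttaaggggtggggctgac
SDHD: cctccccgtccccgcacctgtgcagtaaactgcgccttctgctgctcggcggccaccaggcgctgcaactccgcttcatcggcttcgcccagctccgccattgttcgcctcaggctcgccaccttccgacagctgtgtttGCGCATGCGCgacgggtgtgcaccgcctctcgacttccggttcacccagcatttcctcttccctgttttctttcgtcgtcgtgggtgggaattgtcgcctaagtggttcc
ATP5MC2: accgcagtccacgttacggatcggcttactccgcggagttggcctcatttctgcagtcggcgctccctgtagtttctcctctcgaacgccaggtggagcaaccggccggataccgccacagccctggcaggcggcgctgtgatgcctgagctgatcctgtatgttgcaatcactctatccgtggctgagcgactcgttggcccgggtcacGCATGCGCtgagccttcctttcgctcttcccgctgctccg
ATP5ME: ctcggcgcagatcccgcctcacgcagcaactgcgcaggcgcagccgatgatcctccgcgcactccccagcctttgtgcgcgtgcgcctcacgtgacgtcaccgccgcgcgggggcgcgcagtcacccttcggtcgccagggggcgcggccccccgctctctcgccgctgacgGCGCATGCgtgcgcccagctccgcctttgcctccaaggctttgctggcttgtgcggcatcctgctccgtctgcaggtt

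The motif begins 200 bases before the start in SDHB, 110 and 108 in SDHD, 40 in ATP5MC2 and 78 in ATP5ME. RefSeq windows of 250 bases before to 50 after the start were at hand for 70 of the 89 members. The NRF1 core lay on either strand in 13 of these (18.6%), against 3.27% of all 27305 promoters and 6.24% of the 7902 promoters of genes tested for T>C reads. The core CCGGAAG of ETS factors such as GABP lay in 28.6%, against 10.7% and 21.5%. The YY1 motif AAGATGGC lay in 15.7%, against 3.03% and 6.42%, and AAGGTCA, bound by ERR receptors, in 12.9%, against 3.97% and 2.4%. CCAAT, bound by NF-Y, lay in 35.7%, against 35.7% and 38%, and the GC box GGGCGG in 61.4%, against 44.6% and 71.8%, so that it was less frequent than in promoters of tested genes. None of these shares was tested. Of 11 members called higher in nascent or total RNA with any treatment 10 had a window, and 5 of these held the NRF1 core (ATP5F1C, ATP5MC2, COX6A1, SDHB and SDHD). Of 7 members called lower 6 had one, and 1, ATP5ME, held it. The ETS core lay in 4 of the 10 and 2 of the 6, and the YY1 motif in 1 and 0. A match is a run of letters only, and no binding was measured.

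The partner genes of the chain were read from lists chosen beside the members, and their counts in nascent RNA stand beside 1.04%, 2.66%, 7.46% and 8.1% of all genes called with SRPIN340, Endovion, THZ531 and the combination. Among 9 tested regulators of the nuclear genes 0, 1, 1 and 1 were called. GABPB2, a GABP subunit, rose with Endovion (1.15 ± 0.27, adjusted p = 0.00741, edgeR), and SP1 with THZ531 (1.72 ± 0.40, adjusted p = 0.00291) and the combination (1.40 ± 0.41, adjusted p = 0.0196). In all reads 0, 3, 2 and 3 of the 9 rose, against 1.96%, 11.4%, 30.7% and 29% of all genes called. GABPA, the DNA-binding subunit of GABP, was among them with Endovion (0.80), THZ531 (0.78) and the combination (0.97). No regulator was called lower.

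Of 13 tested genes for mitochondrial DNA upkeep and transcription, 0, 1, 2 and 4 were called in nascent RNA, and 0, 1, 2 and 3 by DESeq2. TFB2M, a mitochondrial transcription factor, rose with Endovion (3.72 ± 0.85, adjusted p = 0.00413, edgeR), THZ531 (3.16 ± 0.87, adjusted p = 0.0136) and the combination (2.72 ± 0.89, adjusted p = 0.0443). TWNK, the mitochondrial helicase, fell by 1.13 ± 0.32 with THZ531 (adjusted p = 0.0197) and by 1.25 ± 0.33 with the combination (adjusted p = 0.00943). With the combination TFAM, which packs mitochondrial DNA, rose (0.95 ± 0.28, adjusted p = 0.023) and SSBP1, its single-strand binding protein, fell by 0.46 ± 0.14 (adjusted p = 0.0325). Of 18 citric acid cycle genes, 0, 2, 4 and 3 rose and none was called lower, while DESeq2 called 0, 2, 2 and 2. FH, which uses the fumarate that complex II makes, rose by 0.67, 0.74 and 0.65 with Endovion, THZ531 and the combination (each ± 0.17, adjusted p = 0.0162, 0.00319 and 0.0101, edgeR). PDHB of pyruvate dehydrogenase rose by 1.36, 1.21 and 1.38 (each ± 0.35, adjusted p = 0.016, 0.022 and 0.00651).

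Of 17 assembly factors tested for complex I, 0, 0, 1 and 3 were called in nascent RNA, which is 17.6% with the combination, and DESeq2 called 0, 0, 1 and 2. COA1 rose with THZ531 (1.60 ± 0.35, adjusted p = 0.00138, edgeR) and the combination (1.41 ± 0.35, adjusted p = 0.0059). With the combination NUBPL rose too (1.08 ± 0.35, adjusted p = 0.0401), a call not made by DESeq2, and DMAC1 fell by 0.74 ± 0.17 (adjusted p = 0.00184). None of the 4 for complex II, 6 for complex III or 5 for complex V was called in edgeR or DESeq2 with any treatment (at most 0, 1 and 2 had an unadjusted p under 0.05). Of 26 for complex IV, CMC2 alone was called in edgeR (0.63 ± 0.19, THZ531, adjusted p = 0.0255) and none by DESeq2. Of the 24 nascent calls in these lists of regulators, mitochondrial DNA genes, citric acid cycle genes and assembly factors, 23 were lost in edgeR when 1 library was left out, 18 of them without control replicate 2. The other was DMAC1, and 6 of the 24 were lost with DESeq2. The 4 complex II assembly factors lay below 0 in nascent RNA with every treatment (medians from -0.57 to -0.32, none at an unadjusted p under 0.05). In all reads 2 lay above and 2 below 0, with medians of 0.24, 0.26, 0.02 and 0.20: SDHAF4 was called higher with Endovion (1.02), SDHAF3 with THZ531 (0.90) and the combination (0.99), and SDHAF1 lower with THZ531 (-0.77). Each of these 4 calls was lost without 1 treated or 1 control library. In all reads with THZ531, 5 of 18, 2 of 4, 2 of 6, 7 of 26 and 0 of 5 assembly factors of complexes I to V were called, against 30.7% of all genes. Of the 18 genes tested for ubiquinone synthesis, cytochrome c and electron transfer outside the complexes, 0 were called in nascent RNA in edgeR, where 2 to 4 had an unadjusted p under 0.05, and 0 in DESeq2. The 13 protein genes of mitochondrial DNA had no interval used here.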

How the data were processed

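RNA of 22RV1 cells was measured by SLAM-seq in 10 libraries, 2 in each of 5 groups taken from the labels. The authors aligned 3′-end reads to hg38 and called T>C conversions with SLAM-DUNK. The submitters' processing notes name Bowtie2 2.3.4.1, SAMtools 1.6 and DESeq2 1.38.2, and per the methods the libraries carried molecular identifiers. Alignment settings, whether reads were collapsed by identifier and masking of variants are not given in the sources used here. The deposited values are raw counts per 3′ interval, all reads in column 12 and T>C reads in column 13. Any signal from variants or read errors would add to T>C reads.

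Intervals were assigned to genes by transcript in GENCODE 44, 1 interval of each overlapping set was kept, and these were summed per gene, giving 31015 genes from 57382 intervals. Members and lists were chosen with earlier results of these data known. Counts were tested with edgeR 4.0.16 (R 4.3.3, quasi-likelihood, TMM, low counts filtered by filterByExpr) over all 10 libraries, with Benjamini-Hochberg adjustment over all genes tested. For the share, T>C and unconverted reads entered 1 edgeR fit, and the term tested was how much treatment moved the former against the latter. Alternatives were DESeq2 1.42.0, other scaling, no filter, a plain sum of all intervals of a gene, fits of 2 groups, the methods' threshold (p under 0.05 without adjustment, fold at least 1 in log2), the replicate number as a block, and leaving out each library. The fits were checked on simulated data. The rule for named genes took, per comparison with calls, up to 3 (nascent) or 2 (all reads) members that rose and fell with the smallest p and T>C counts of at least 20 in both libraries of whichever group was higher, the isoform sets, the member of each complex with most T>C reads in control, and members not tested. Other called members, COX6A1 and ATP5MGL in T>C reads, and genes of the share test were chosen after their values were seen. A gene that the rule names is not reported here. Replicate numbers did not pair the libraries. Library totals of 19315398 to 30047663 reads limit the precision of low genes.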

Additional observations from a re-analysis of the deposited data

Results flagged for a closer look

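The effect of Endovion on nascent NDUFB3 differed with THZ531 present. The log2 effect with THZ531 minus that without was -2.99 ± 0.61 (SE, adjusted p = 0.0197, edgeR interaction term), where 30 of 9946 genes and 1 of 78 members were called and 10 members had an unadjusted p under 0.05. The effect without THZ531 is measured from the 2 control libraries, which held 18 and 6 T>C reads of the gene. The effect with THZ531 is measured from the THZ531 libraries, where nascent NDUFB3 was itself called higher than in control. Leaving out each library in turn gave -3.79 to -2.08, and the call was lost without Endovion replicate 1 (adjusted p = 0.0894) or 2 (adjusted p = 0.107), THZ531 replicate 2 (adjusted p = 0.328), THZ531 + Endovion replicate 1 (adjusted p = 0.0953) or 2 (adjusted p = 0.147), or control replicate 2 (adjusted p = 0.214).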

How the results depend on the processing

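Of 342 values of named genes under other settings, 244 kept their side of the threshold, 98 lost their call in the same direction and 0 reversed. Members called in nascent RNA under a plain sum of intervals were 0, 1, 1 and 2 with SRPIN340, Endovion, THZ531 and THZ531 + Endovion, where 2, 46, 247 and 273 of all genes were called. Fits of 2 groups gave 2 with Endovion, 3 with THZ531 (481 of all genes), and 1 each for Endovion against SRPIN340, the combination against Endovion (67 of all genes) and the combination against THZ531. The methods' threshold gave 2 with SRPIN340 and 1, 2 and 2 for those 3 comparisons (463, 190, 548 and 342 of all genes), and no filter gave 3 with SRPIN340. In all reads DESeq2 gave 4 with SRPIN340 (906 of all genes) and 10 with Endovion, no filter 6 (1211 of all genes) and 10, the plain sum 1 with Endovion, fits of 2 groups 3 with THZ531, and the methods' threshold 3, 4, 4 and 4 (619, 1010, 2174 and 2035 of all genes). For the share the plain sum gave 0 in each comparison and the methods' threshold 3 with THZ531. Member counts given here without a count of all genes do not show how the members compare with other genes.

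With the replicate number as a block 3 members were called in nascent RNA (109 of all genes, 1.1%) and 1 in all reads (96 of all genes, 0.654%) with SRPIN340. Same-numbered libraries did not deviate together (correlations of replicate differences from -0.0698 to 0.06), so the numbers do not pair them.

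Leaving out each library in turn gave 0 to 3, 1 to 7, 1 to 6 and 1 to 8 members in nascent RNA with SRPIN340, Endovion, THZ531 and the combination, where 0.113% to 2.02%, 0.836% to 3.78%, 2.26% to 6.41% and 2.99% to 7.75% of all genes were called, and 0 to 1 for Endovion against SRPIN340 (0.0281% to 0.047%). In all reads it gave 0 to 10, 1 to 11, 1 to 14 and 2 to 18 members (0.0196% to 9.43%, 1.47% to 15.5%, 13.1% to 28% and 14.4% to 27.5% of all genes). For the share it gave 0 to 3, 0 to 5, 0 to 4 and 0 to 6 (0.0101% to 0.643%, 0.0503% to 0.945%, 0.0503% to 0.905% and 0.0905% to 1.82%). Without control replicate 2 the nascent count was at its lowest in each of the 4 comparisons with control, and leaving out 1 treated library gave the same count with SRPIN340 (replicate 2) and THZ531 (replicate 2). The cause was not tested. Depth limits SDHD, NDUFB7 and NDUFB3, with 2 to 18 T>C reads in the controls.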
